A study of Mus musculus with 2 samples.

Results

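The genes described here are the platelet-derived growth factor (PDGF) ligands Pdgfa, Pdgfb, Pdgfc and Pdgfd and the PDGF receptors Pdgfra and Pdgfrb. They were taken by symbol and are 6 of the 30905 genes of the deposited matrices. The data are 2 single-cell RNA libraries, replicates 1 and 2, made with the 10x 3' V3.1 chemistry from brain cells that carried Dendra2. The mice were male, 4 to 6 weeks old, and of the strain Dmp1Cre-COX8Dendra2. In this strain Cre recombinase is driven by Dmp1 and Dendra2, a green fluorescent protein that can be switched to red, is sent to mitochondria by a COX8 signal. A cell is therefore marked if Dmp1 was active in it or in a cell it descends from. Both libraries shared this genotype and sort, so there was 1 group and no untreated, Cre-negative or Dendra2-negative sample among them. The comparisons below are therefore between cell classes within the libraries. The labels do not say whether the libraries came from separate or pooled mice. The p-values therefore measure only how far the differences between groups of cells varied between these 2 libraries. They cannot be read as a spread between mice.

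PDGF ligands are secreted dimers of related chains, and PDGF receptors are receptor tyrosine kinases that pair when a dimer binds. The A and B chains are cleaved inside the cell, whereas the C and D chains carry a CUB domain that is removed after secretion. PDGF-A and PDGF-C act mainly through the alpha receptor, PDGF-D mainly through the beta receptor, and PDGF-B can bind both. In the brain, PDGF-B made by endothelium recruits mural cells, the pericytes and smooth muscle cells around vessels, through the beta receptor. The alpha receptor is best known there on oligodendrocyte precursors and on fibroblasts.

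Barcodes with at least 500 genes, at least 1000 unique molecular identifiers (UMIs, counted molecules) and under 20% mitochondrial UMIs were kept, 7697 in replicate 1 and 6427 in replicate 2. Their median depth was 6897 and 3016 UMIs. Each was placed by its UMIs per 10000. Smooth muscle cells had Acta2 at 80 or more and were divided at a Cnn1 value of 3 into Cnn1-high and Cnn1-low cells. Transitional cells had Acta2 from 20 to under 80 with Rgs5 at 80 or more. Pericytes had Vtn at 50 or more with Acta2 under 20, and endothelium had Cldn5 at 5 or more with Vtn under 20. A further class, called Gpr17/Enpp6 cells, had at least 3 UMIs of Gpr17 plus Enpp6, genes of committed oligodendrocyte precursors. In replicates 1 and 2 the classes held 1174 and 126 Cnn1-high cells, 2419 and 664 Cnn1-low cells, 723 and 354 transitional cells and 2388 and 3296 pericytes. The other classes held 246 and 1123 endothelial cells and 155 and 120 Gpr17/Enpp6 cells. These classes are ranges of marker level rather than separate types, and 515 and 237 barcodes lay within 20% of the Acta2 value of 80.

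Markers that the rules did not use followed the class names for mural cells and endothelium. Myh11, a smooth muscle myosin, stood at 4300 and 4512 CPM (UMIs per 1000000 UMIs of the class in 1 library) in Cnn1-high cells and at 3224 and 3240 CPM in Cnn1-low cells, and at 139 and 71.9 CPM in pericytes. Kcnj8, a pericyte potassium channel, stood at 1428 and 893 CPM in pericytes and at no more than 173 CPM in the other classes. Pecam1 stood at 667 and 631 CPM in endothelium and at no more than 39.1 CPM elsewhere. The Gpr17/Enpp6 cells went partly against their name, most in replicate 2, where the 6 mature oligodendrocyte markers summed to 21056 CPM and the 8 committed-precursor markers to 2671 CPM. In replicate 1 those sums were 10576 and 6605 CPM. The 3 red cell genes summed to 18591 and 33487 CPM in endothelium and to no more than 2236 CPM in any other class, and the part of red cell RNA in the endothelial results was not tested. The libraries also stood apart in Fos, an immediate-early gene, which ranged over the classes from 1.55 to 63.8 CPM in replicate 1 and from 2462 to 5549 CPM in replicate 2. They shared 14 kept barcodes.

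Each member had its own distribution over the classes. The levels below are CPM of 3' UMIs, with no correction for gene length, so they are compared between classes and not between genes. Values are given for replicates 1 and 2 in that order, and intervals in parentheses are 95% exact Poisson intervals that cover counting error only. Where a sum held 0 UMIs, the level that 3 UMIs would give is stated as the limit.

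**Figure D1:**
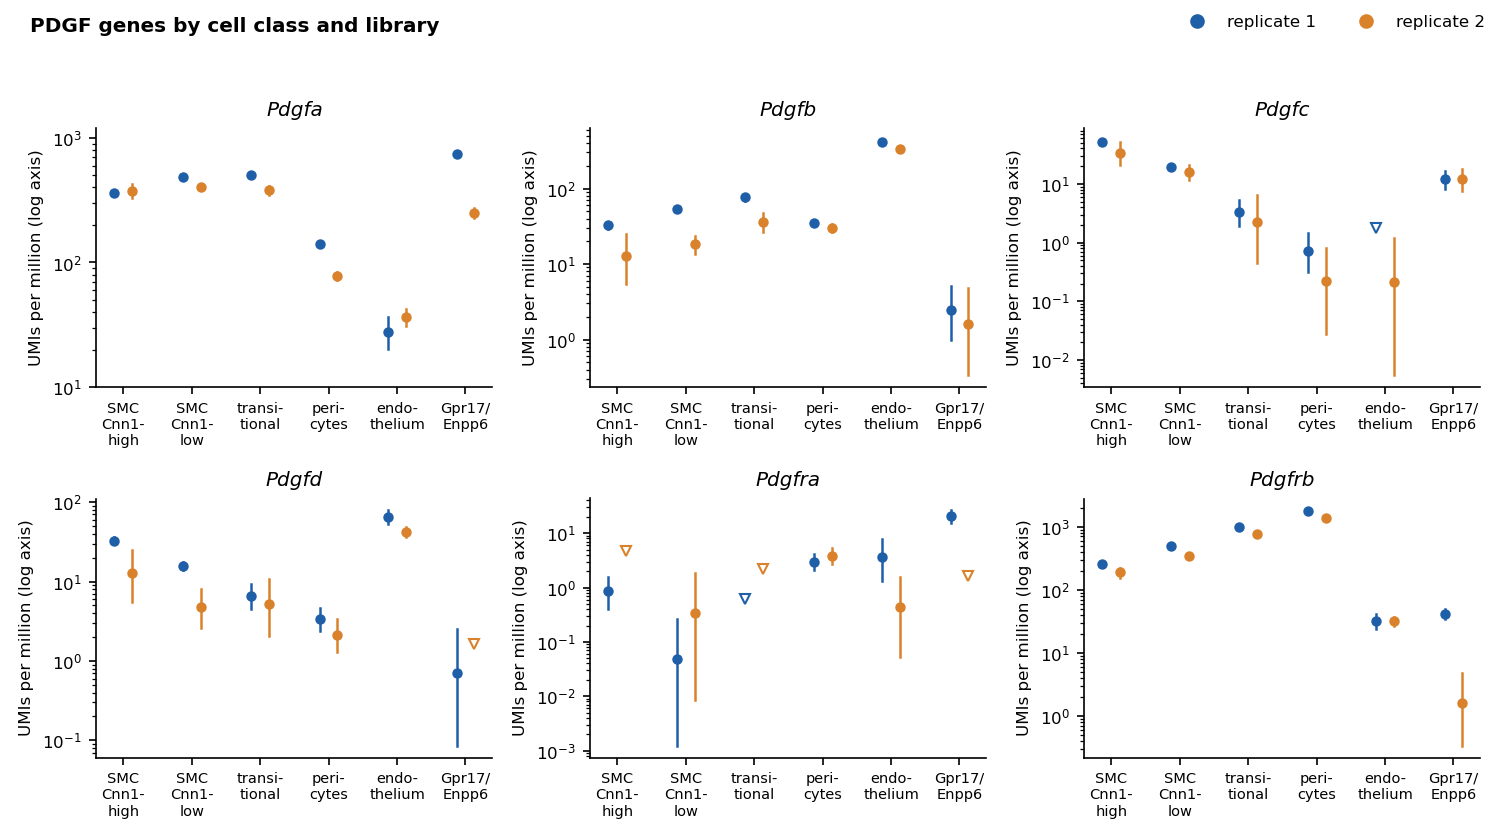
Level of the 6 PDGF genes in the 6 cell classes, in CPM on a log axis, with 1 point for each library, 95% Poisson intervals as bars and open triangles at the level of 3 UMIs where no UMI was counted. Pdgfb peaked in endothelium, Pdgfrb in pericytes, Pdgfc in Cnn1-high smooth muscle cells and Pdgfd in endothelium, while Pdgfa was at 361 CPM or more in every smooth muscle and transitional sum.

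Pdgfb encodes the B chain (ENSMUSG00000000489, chr15:79995874-80014977, minus strand, GENCODE M21 on GRCm38). It stood at 410 CPM (380 to 442) and 336 CPM (320 to 353) in endothelium, a mean of 373 ± 52.2 (SD, n = 2). Every other class was far below both values. Transitional cells had 76.1 and 36.2 CPM, Cnn1-low cells 53.0 and 18.3 CPM, pericytes 34.8 and 29.7 CPM and Cnn1-high cells 32.6 and 12.6 CPM. In both libraries transitional cells had the most of these 4 mural classes and Cnn1-high cells the least, while pericytes and Cnn1-low cells changed places. The ratio of transitional to Cnn1-low cells was 1.44 (1.27 to 1.62) and 1.99 (1.32 to 2.98). That of transitional cells to pericytes was 2.19 (1.89 to 2.53) in replicate 1 and 1.22 (0.882 to 1.66) in replicate 2, where the counting interval includes 1. Gpr17/Enpp6 cells held only 7 and 3 Pdgfb UMIs, 2.47 and 1.63 CPM, which lay below every other class. At least 1 Pdgfb UMI was found in 85.4% (80.3 to 89.5, exact binomial 95% interval) and 63.6% (60.7 to 66.4) of endothelial barcodes. The shares in Gpr17/Enpp6 barcodes were 2.58% (0.708 to 6.48) and 1.67% (0.202 to 5.89), at median depths of 5977 and 3440 UMIs against 16489 and 13662 UMIs.

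Mural Pdgfb was compared with the endothelial RNA found in the same sums. The reference was the sum of 6 endothelial markers that the class rules did not use, Pecam1, Cdh5, Flt1, Ly6c1, Slco1a4 and Tek. Endothelium held 31.1 and 29.2 Pdgfb UMIs per 1000 UMIs of these markers, and pericytes held 86.6 and 37.9. Transitional cells held 1022 and 360, and Cnn1-low smooth muscle cells 1835 and 346. The pericyte ratio of replicate 2 thus lay closest to the endothelial ones, and the part of endothelial RNA in pericyte Pdgfb was not tested. The 7 endothelial markers together summed to 539 and 1079 CPM in pericytes and to between 16.4 and 69.6 CPM in the smooth muscle classes. Outside the classes, Pdgfb stood at 77.1 and 237 CPM in 99 and 16 microglia and macrophages.

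Pdgfa encodes the A chain (ENSMUSG00000025856, chr5:138976014-138997370, minus strand). It stood at 361 CPM (350 to 372) and 376 CPM (330 to 427) in Cnn1-high cells, at 484 and 407 CPM in Cnn1-low cells (mean 446 ± 55.0, SD, n = 2) and at 500 and 379 CPM in transitional cells. Pericytes had 140 CPM (133 to 147) and 78.5 CPM (72.8 to 84.5), and endothelium 27.6 and 36.2 CPM. The smooth muscle and transitional sums thus lay above both pericyte sums, which lay above both endothelial sums, and Cnn1-low and transitional cells overlapped. Gpr17/Enpp6 cells had 747 CPM (716 to 780) in replicate 1 and 250 CPM (228 to 274) in replicate 2. That class was the highest in the first library and was below the 3 Acta2-positive classes in the second. Pdgfa UMIs were found in 95.1% and 75.8% of Cnn1-low barcodes and in 8.94% and 8.99% of endothelial barcodes. With every barcode thinned to 1000 UMIs these shares were 37.7% and 31.7%, against 1.73% and 2.67%.

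Pdgfc encodes the C chain (ENSMUSG00000028019, chr3:81036416-81214040, plus strand) and was graded along the mural classes. It stood at 51.9 CPM (47.9 to 56.2) and 33.2 CPM (20.5 to 50.7) in Cnn1-high cells, a mean of 42.6 ± 13.3 (SD, n = 2), and at 19.6 and 15.9 CPM in Cnn1-low cells. Transitional cells had 3.32 and 2.22 CPM, from 16 and 3 UMIs, and pericytes 0.729 and 0.226 CPM, from 8 and 2 UMIs. Endothelium held 0 UMIs in replicate 1, with a limit of 1.8 CPM, and 1 UMI in replicate 2. Gpr17/Enpp6 cells stood between the Cnn1-low and transitional cells, at 11.97 and 11.93 CPM, and mature oligodendrocytes outside the classes had 15.7 and 10.3 CPM. No neighbouring pair in this order overlapped across the libraries, although at this depth pericytes and endothelium could not be told apart.

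Pdgfd encodes the D chain (ENSMUSG00000032006, chr9:6168584-6378850, plus strand) and was highest in endothelium, at 65.4 CPM (53.7 to 78.9) and 42.3 CPM (36.6 to 48.7), a mean of 53.9 ± 16.3 (SD, n = 2). Cnn1-high cells came next, at 32.4 CPM (29.3 to 35.9) and 12.6 CPM (5.46 to 24.9), followed by Cnn1-low cells at 15.8 and 4.73 CPM. Transitional cells had 6.64 and 5.18 CPM and pericytes 3.37 and 2.14 CPM. The Cnn1-high values overlapped the Cnn1-low ones, and the Cnn1-low values overlapped the transitional ones. Gpr17/Enpp6 cells held 2 UMIs in replicate 1 and 0 in replicate 2, with a limit of 1.63 CPM.

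The sequences just upstream of Pdgfc and Pdgfd are shown because these ligands had the largest differences between smooth muscle cells and pericytes (below). Each is the 250 bases before the gene's RefSeq start on GRCm38.p6, 5′ to 3′ on the gene's strand, with matches to 5 motifs in capitals. RefSeq promoter entries matched Pdgfa, Pdgfc, Pdgfd and Pdgfra, 4 of the 6 genes.
Pdgfc, chr3:81036166-81036415, plus strand: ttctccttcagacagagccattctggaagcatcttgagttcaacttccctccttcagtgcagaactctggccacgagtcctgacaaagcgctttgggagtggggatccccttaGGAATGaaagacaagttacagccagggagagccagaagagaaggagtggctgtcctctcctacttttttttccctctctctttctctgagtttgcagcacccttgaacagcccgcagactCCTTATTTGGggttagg
Pdgfd, chr9:6168236-6168485, plus strand: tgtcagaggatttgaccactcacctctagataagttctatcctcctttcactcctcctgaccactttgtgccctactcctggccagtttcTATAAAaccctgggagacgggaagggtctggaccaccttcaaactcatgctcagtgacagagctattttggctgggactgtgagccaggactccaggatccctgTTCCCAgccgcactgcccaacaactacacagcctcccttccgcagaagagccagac
The motifs, searched on both strands, were GGGCGG (the GC box), TATAAA (the TATA box), TGGGAA (core of the Notch factor Rbpj), GGAATG (TEAD factors) and the CArG box of serum response factor, a regulator of smooth muscle genes. The first capitals in Pdgfc are GGAATG, from base -137 before the start, and the second are a CArG box, from base -17. In Pdgfd they are TATAAA, from base -160, and TGGGAA on the opposite strand, from base -56. None of these matches overlapped another. Of 32851 RefSeq windows of the same length, 1.47% held a CArG box, 12.6% GGAATG, 12.4% TATAAA, 21.6% TGGGAA and 32.7% GGGCGG. A match describes the letters and shows no binding.

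Pdgfrb encodes the beta receptor, the mural receptor for PDGF-B (ENSMUSG00000024620, chr18:61045150-61085061, plus strand), and had the reverse order to Pdgfc over the mural classes. It stood at 1795 CPM (1770 to 1820) and 1382 CPM (1357 to 1406) in pericytes, a mean of 1588 ± 292 (SD, n = 2). It stood at 987 and 757 CPM in transitional cells, 496 and 343 CPM in Cnn1-low cells and 259 and 188 CPM in Cnn1-high cells. None of these neighbouring classes overlapped across the libraries. Endothelium had 31.8 and 31.9 CPM, and Gpr17/Enpp6 cells 41.9 and 1.63 CPM, from 119 and 3 UMIs. A Pdgfrb UMI was present in 99.6% and 94.0% of pericyte barcodes, in 83.9% and 60.3% of Cnn1-high barcodes and in 10.6% and 9.62% of endothelial barcodes. At 1000 UMIs for every barcode those shares were 82.1% and 72.9%, 21.9% and 17.7%, and 2.03% and 2.86%. All 7 pericyte markers were also detected in endothelium, summing to 435 and 412 CPM there against 27635 and 23204 CPM in pericytes.

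Pdgfra encodes the alpha receptor (ENSMUSG00000029231, chr5:75152292-75198215, plus strand) and was nearly absent from the vascular classes. Pericytes held 33 and 34 UMIs, 3.01 and 3.83 CPM, endothelium 6 and 2 UMIs, and Cnn1-low cells 1 and 1. Cnn1-high cells held 10 and 0 UMIs, with a limit of 4.74 CPM for the latter, and transitional cells held none in either library, with limits of 0.622 and 2.22 CPM. The pericyte UMIs came from 7 and 12 barcodes, in which the 7 fibroblast markers summed to 15842 and 12344 CPM, against 826 and 606 CPM in pericytes without a Pdgfra UMI. Their pericyte markers summed to 11044 and 11335 CPM, against 27695 and 23266 CPM. Outside the classes, 8 and 17 fibroblasts had 282 and 620 CPM, and 13 other oligodendrocyte-lineage barcodes of replicate 1 had 410 CPM. All 31 UMIs of those 13 barcodes were in 2 of them, and 20 were in 1. The group went partly against its name, as its 6 astrocyte markers summed to 10458 CPM and its 6 oligodendrocyte precursor markers to 4607 CPM. In the 2 barcodes with Pdgfra the precursor markers summed to 6125 CPM. Gpr17/Enpp6 cells had 58 UMIs, 20.4 CPM, in replicate 1 and none in replicate 2, with a limit of 1.63 CPM, and 37 of the 58 were in 1 barcode.

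Because the classes differed in size and depth, most UMIs of a gene did not always come from the class with the highest level. Endothelium gave 21.4% of all Pdgfb UMIs in replicate 1 and 74.6% in replicate 2, and 11.3% and 76.2% of all Pdgfd UMIs. Cnn1-high cells gave 51.7% and 13.6% of the Pdgfc UMIs. Pericytes gave 49.2% and 77.8% of the Pdgfrb UMIs. Endothelium held 246 barcodes in replicate 1 and 1123 in replicate 2.

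**Figure D2:**
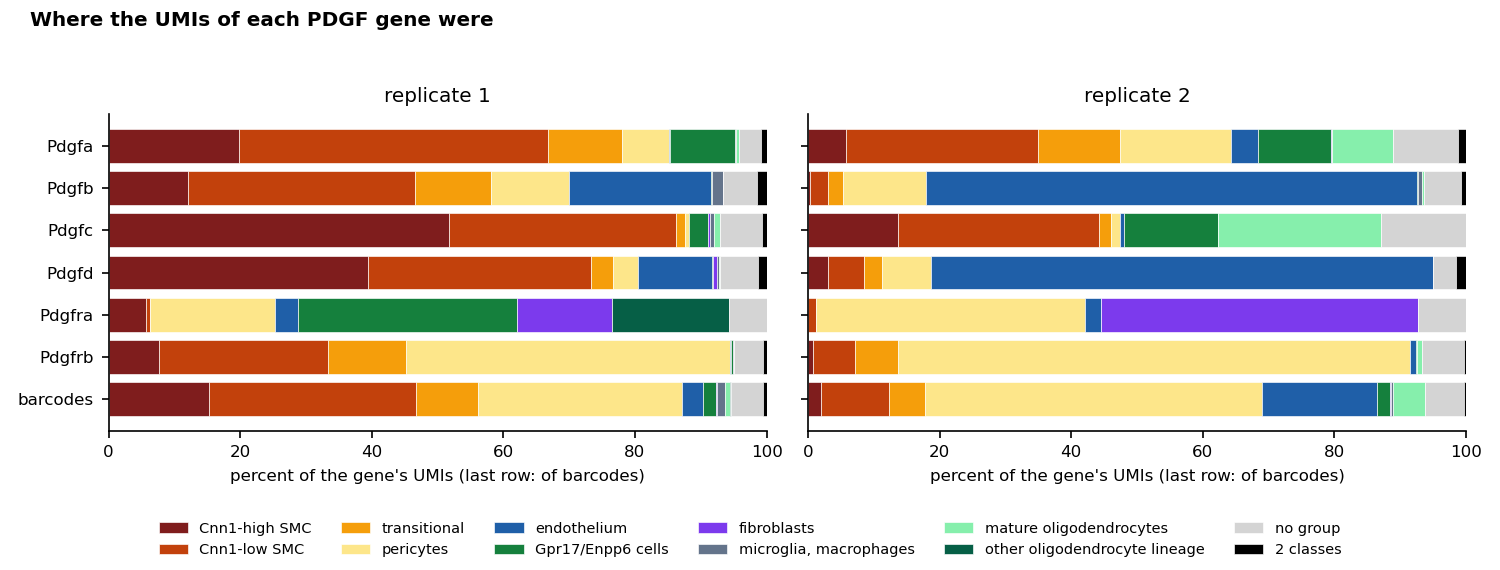
Percent of each gene's UMIs that came from each group of barcodes, as stacked bars that sum to the kept barcodes of a library, with the barcodes themselves in the last row. Endothelial UMIs were 21.4% of Pdgfb in replicate 1 and 74.6% in replicate 2.

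Smooth muscle cells had more Pdgfc, Pdgfd and Pdgfa than pericytes and less Pdgfrb and Pdgfra. The test was edgeR's quasi-likelihood test on the 12 class sums with the library as a block, and adjusted p-values are Benjamini-Hochberg values over all genes tested. With the smooth muscle classes averaged, Pdgfc was 6.10 ± 0.35 (SE) higher on the log2 scale (adjusted p = 1.62e-06). Pdgfd was higher by 2.82 ± 0.32 (adjusted p = 9.87e-05) and Pdgfa by 2.26 ± 0.33 (adjusted p = 0.000533). Pdgfrb fell by 2.08 ± 0.47 (adjusted p = 0.00623). Pdgfra fell by 3.95 ± 1.21 (adjusted p = 0.0331), a call lost without the library block (0.125) or with DESeq2 (0.100), and its pericyte UMIs came from the few barcodes rich in fibroblast markers. Pdgfb gave 0.12 ± 0.28 (adjusted p = 0.80), from libraries that differed. In replicate 1 Cnn1-low cells had 53.0 CPM and Cnn1-high cells 32.6 CPM, against 34.8 CPM in pericytes. In replicate 2 both were below pericytes, at 18.3 and 12.6 CPM against 29.7 CPM. So 3 members were called higher and 2 lower, where 35.0% of 12725 genes were called in either direction, 15.2% higher and 19.8% lower.

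Within smooth muscle, Pdgfc was the member that passed the test between Cnn1-high and Cnn1-low cells. It was 1.38 ± 0.26 higher in Cnn1-high cells (adjusted p = 0.0325), in both libraries, where 1.62% of genes were called, 0.582% higher and 1.04% lower. That call was lost without the library block (0.285), with the barcodes of the highest Scrublet doublet scores left out (461 and 385 barcodes, the top 6% of each library, 0.0843), with stricter cell filters (0.211) and with raised class thresholds (0.198). The stricter filters asked for 1000 genes, 2000 UMIs and under 10% mitochondrial UMIs. In replicate 1 they left 151 of 1174 Cnn1-high cells, 1188 of 2419 Cnn1-low cells and 2197 of 2388 pericytes. Between Cnn1-high and Cnn1-low cells Pdgfd differed by 1.26 ± 0.32 (adjusted p = 0.104), Pdgfa by -0.20 ± 0.35 (1), Pdgfb by -0.44 ± 0.34 (0.857) and Pdgfrb by -0.84 ± 0.57 (0.799). Pdgfrb was lower in Cnn1-high cells in both libraries, at 259 and 188 CPM against 496 and 343 CPM. Its SE rests on 1 spread over all 12 sums, which include the Gpr17/Enpp6 sums at 41.9 and 1.63 CPM. Their part in the SE was not tested. Between Cnn1-low and transitional cells Pdgfc fell by 2.84 ± 0.35 (adjusted p = 0.00318) and no other member was called, where 3.05% of genes were, 1.60% higher and 1.45% lower. The Pdgfrb difference, transitional minus Cnn1-low, was 0.88 ± 0.56 (adjusted p = 0.561), which became 0.96 (0.0270) with all barcodes thinned to 1000 UMIs.

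From transitional cells to pericytes the ligands Pdgfa and Pdgfc fell. Pdgfa fell by 2.14 ± 0.36 (adjusted p = 0.00442) and Pdgfc by 2.57 ± 0.51 (adjusted p = 0.0107), where 9.93% of genes were called, 4.47% higher and 5.46% lower. The Pdgfc call rests on 16 and 3 UMIs against 8 and 2, and was lost without those highest doublet scores (0.0607), with stricter cell filters (0.0937), with raised thresholds (0.115) and after thinning, where the difference was -0.33 (0.942). Pdgfb gave -0.81 ± 0.32 (adjusted p = 0.167), which passed after thinning at -1.54 (0.000875). Pdgfd gave -1.08 ± 0.42 (0.158), which passed without the highest doublet scores at -1.92 (0.0383). Pdgfrb gave 0.78 ± 0.56 (0.483), which passed after thinning at 0.82 (0.0258).

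Endothelium differed from the mural classes, averaged, in 5 members. Pdgfb was higher by 3.37 ± 0.21 (adjusted p = 8.60e-07) and Pdgfd by 2.74 ± 0.23 (adjusted p = 5.94e-06). Pdgfa fell by 3.21 ± 0.35 (4.21e-05), Pdgfc by 4.99 ± 0.67 (0.000163) and Pdgfrb fell by 4.25 ± 0.61 (0.000266). Here 43.7% of genes were called, 22.2% higher and 21.5% lower, so a call was common. Gpr17/Enpp6 cells against the average of the vascular classes gave calls for all 6 members, where 58.5% of genes were called, 28.3% higher and 30.3% lower. Pdgfa was higher by 1.12 ± 0.25 (adjusted p = 0.00333) and Pdgfc by 1.86 ± 0.31 (0.000452), a call that thinning lost (0.0827). Pdgfra was higher by 4.47 ± 0.99 (0.00396) from replicate 1 alone, since replicate 2 held 0 UMIs. Pdgfb fell by 4.98 ± 0.45 (6.91e-06), Pdgfd by 4.98 ± 0.61 (5.73e-05, and 0.0864 after thinning) and Pdgfrb fell by 4.25 ± 0.62 (0.000205). The Pdgfa difference was 1.71 in replicate 1 and 0.44 in replicate 2, and the vascular average includes the low endothelial and pericyte levels.

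**Figure D3:**
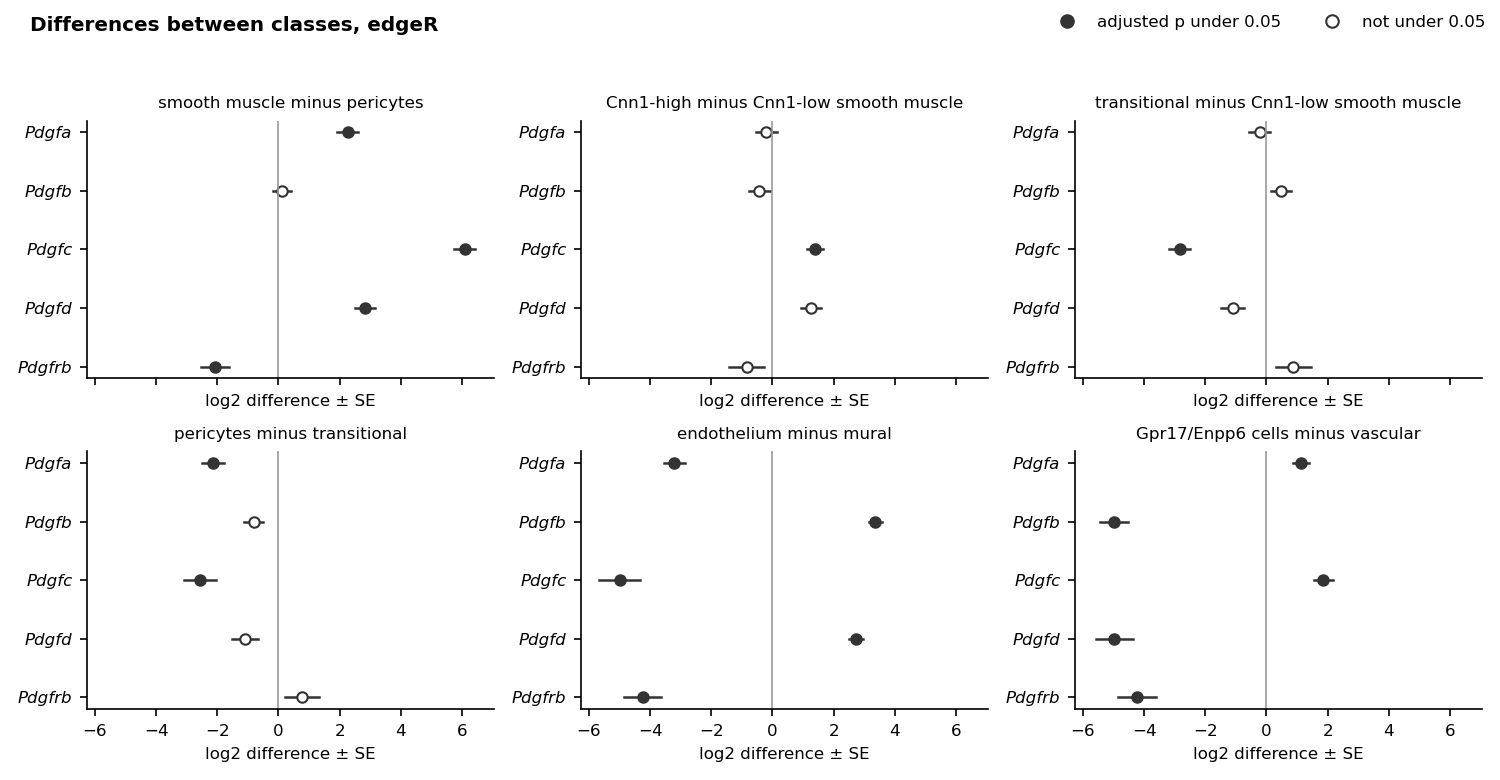
Differences between classes for 5 PDGF genes in 6 comparisons, as log2 values with SE bars from edgeR's quasi-likelihood test, filled where the adjusted p was under 0.05. Pdgfc ran from 6.10 between smooth muscle cells and pericytes to -4.99 between endothelium and mural cells, and Pdgfb stood at 3.37 in the latter. Pdgfra, with few UMIs, is not drawn.

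The mural gradients were also read along Acta2 itself, in 5 ranges of Acta2 per 10000. These took the smooth muscle, transitional and pericyte classes and unclassed barcodes with Vtn at 20 or more and Cldn5 under 5. From the lowest range (under 5) to the highest (200 or more), Pdgfrb went from 1806 through 1671, 1002 and 553 to 255 CPM in replicate 1. In replicate 2 it went from 1360 through 1280, 769 and 336 to 225 CPM. Pdgfc went from 0.755 to 41.5 CPM and from 0.344 to 24.5 CPM, and each range was above the one before it in both libraries. The ranges under 80 held only 7, 4 and 24 UMIs in replicate 1 and 3, 1 and 5 in replicate 2. Neighbouring intervals overlapped among them in both libraries, and in replicate 2 those of the ranges above 80 overlapped too. Pdgfa took another course. It stood at 109 and 71.7 CPM under an Acta2 of 5, at 314 and 299 CPM from 5 to 20, and between 375 and 497 CPM in all ranges above 20. Pdgfb had its highest value for Acta2 from 20 to 80 in replicate 1, at 72.7 CPM (65.6 to 80.4). The range from 5 to 20 overlapped it, at 65.1 CPM (54.5 to 77.2). In replicate 2 the highest value was 41.1 CPM (27.1 to 59.8) for 5 to 20, from 27 UMIs. Its interval overlapped those of the ranges on either side, at 28.7 CPM (25.2 to 32.5) and 33.7 CPM (25.3 to 44.0). These are levels along a class-defining gene and were not tested.

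**Figure D4:**
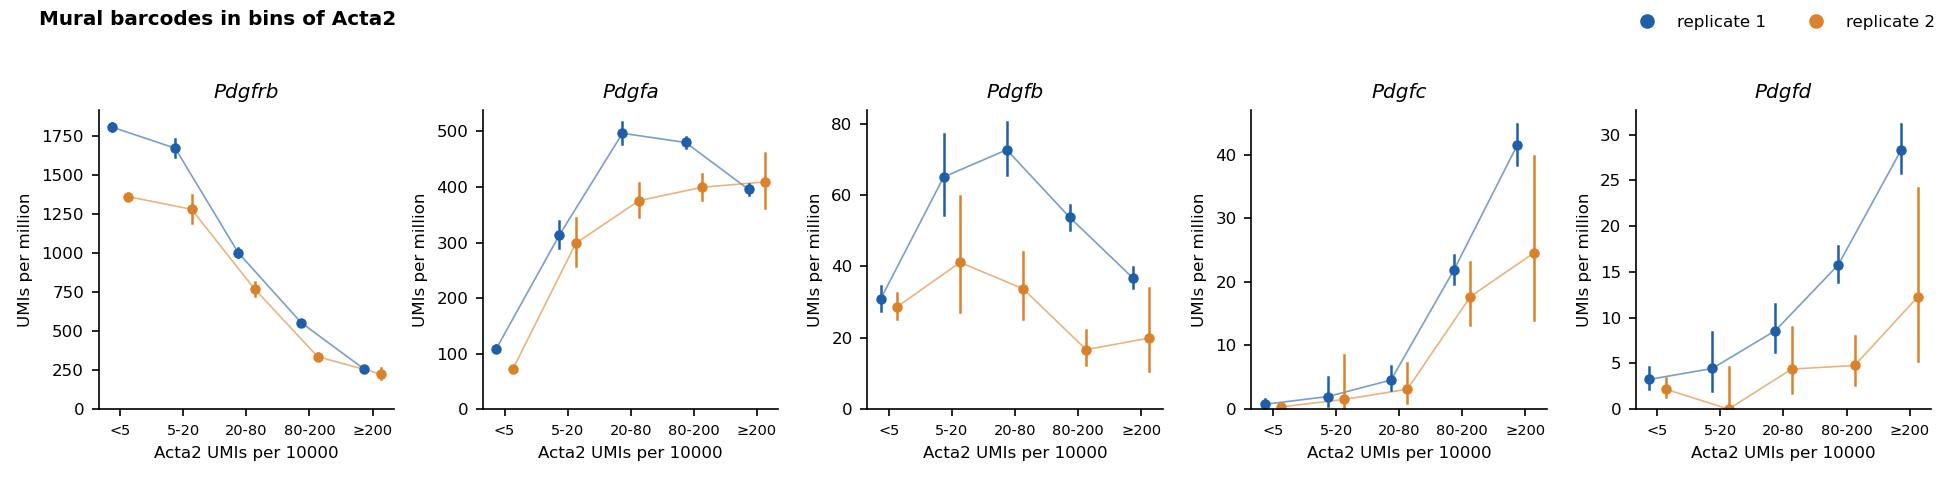
Level of 5 PDGF genes in CPM by range of Acta2 per 10000 in mural barcodes, with 1 line for each library and 95% Poisson intervals. Pdgfrb declines from 1806 to 255 CPM in replicate 1 while Pdgfc climbs from 0.755 to 41.5 CPM. Above an Acta2 of 20, Pdgfa goes from 497 through 480 to 396 CPM in replicate 1 and from 375 through 400 to 409 CPM in replicate 2.

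Within endothelium, Pdgfa was higher on the arterial side, and Pdgfb was present on both sides. Endothelial barcodes were divided by UMIs of 6 arterial markers, such as Bmx and Gkn3, and 6 venous markers, such as Slc38a5 and Nr2f2, into 65 arterial, 122 venous and 59 other barcodes in replicate 1 and 212, 394 and 517 in replicate 2. Pdgfa stood at 68.3 CPM (47.5 to 94.9) and 100.5 CPM (82.1 to 122) on the arterial side and at 12 CPM (5.75 to 22.1) and 16.8 CPM (11.5 to 23.7) on the venous side. Other barcodes had 3.12 and 18.6 CPM. Arterial exceeded venous by 2.54 ± 0.25 on the log2 scale (edgeR adjusted p = 1.01e-08), where 8.71% of 8702 genes were called, 4.95% higher and 3.76% lower. The fit had 2 residual degrees of freedom. The call was lost without the library block (0.0871) and when barcodes that met 2 class rules were kept, at 1.21 (0.208). Keeping them took the venous barcodes of replicate 1 from 122 to 124 and left the arterial ones at 65.

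Pdgfd was 0.80 ± 0.21 higher in arterial than in venous barcodes (adjusted p = 0.0121), from 91.7 against 45.6 CPM and 53.1 against 33.1 CPM. Pdgfrb was 1.07 ± 0.28 higher (adjusted p = 0.0133), from 66.3 against 19.2 CPM and 43.5 against 26.8 CPM. The Pdgfd call was lost with DESeq2 (0.65), without the block (0.453) and after thinning (0.361), and the Pdgfrb call with DESeq2 (0.476), without the block (0.566), with barcodes of 2 classes kept (0.0668) and without the highest doublet scores (0.0817). Pdgfb stood at 456 and 351 CPM in arterial and 395 and 320 CPM in venous barcodes, a difference of 0.14 ± 0.10 (adjusted p = 0.509). The ratio of arterial to venous Pdgfb was 1.16 (0.973 to 1.37) and 1.10 (0.959 to 1.25), with exact 95% intervals for counting error. The 7 smooth muscle markers summed to 1689 and 1235 CPM in arterial and 802 and 426 CPM in venous barcodes, with 1 marker at 0 in the arterial sum of replicate 2. Their part in the Pdgfa and Pdgfrb differences was not tested.

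Within the Gpr17/Enpp6 class, Pdgfa was higher in barcodes on the Enpp6 side. Those with more Enpp6 than Gpr17 had 890 CPM (853 to 930) in 120 barcodes of replicate 1 and 330 CPM (300 to 362) in 99 of replicate 2. Those with more Gpr17 had 84.6 CPM (61.0 to 114) in 30 barcodes and 39.5 CPM (24.1 to 61.0) in 21. Pdgfa fell by 3.22 ± 0.32 from the Enpp6 side to the Gpr17 side (edgeR adjusted p = 6.92e-06), where 3.68% of 8242 genes were called, 1.67% higher and 2.00% lower. Only 1 residual degree of freedom stood behind it, and the call was lost without the library block (0.555) and after thinning, at -2.14 (0.0845). The 6 mature oligodendrocyte markers summed to 14047 and 28578 CPM on the Gpr17 side and to 9902 and 18207 CPM on the Enpp6 side. The 7 smooth muscle markers summed to 256 and 27.6 CPM on the Gpr17 side and to 880 and 193 CPM on the Enpp6 side, with 2 and 1 of them at 0 in replicate 2. The part of either in the Pdgfa difference was not tested. Pdgfc was 22.2 and 21.7 CPM on the Gpr17 side and 9.90 and 8.22 CPM on the Enpp6 side, a difference of 1.29 ± 0.51 (0.282). In replicate 1, 55 of the 58 Pdgfra UMIs were on the Gpr17 side, in 10.0% of its barcodes. Mature oligodendrocytes outside the class had 127 and 104 CPM of Pdgfa, below the Enpp6-side values of both libraries.

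Smooth muscle cells with a UMI of Dmp1, the gene that drives Cre in these mice, had more Pdgfc than matched cells without one. Dmp1 stood at 28.8 and 49.0 CPM in Cnn1-high cells, at 21.3 and 26.0 CPM in Cnn1-low cells and at no more than 3.94 CPM in any other class. Each cell with a Dmp1 UMI was set beside 3 cells of its library and class of like depth without one. In Cnn1-low cells Pdgfc was 46.1 CPM (38.0 to 55.3) and 65.6 CPM (36.7 to 108) with Dmp1, and 16.8 CPM (13.9 to 20.01) and 8.84 CPM (3.24 to 19.2) without. In Cnn1-high cells it was 66.1 and 44.9 CPM with Dmp1 and 52.7 and 24.9 CPM without. The difference over both classes was 0.89 ± 0.18 (edgeR adjusted p = 0.0051), where 0.528% of 8716 genes were called, 0.195% higher and 0.333% lower. Pdgfc was higher with Dmp1 in all 4 pairs of sums. It was lost with DESeq2 (0.86), without the block (1.0) and with 1 matched cell in place of 3 (0.167), and it was 1.97 in replicate 2 alone, from 15 and 5 UMIs with Dmp1 in the 2 classes and 6 and 8 without. Earlier results on these files already showed this association, so it is not independent evidence.

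The ratio of Pdgfc with Dmp1 to Pdgfc without it was 2.75 (2.11 to 3.57) and 7.42 (2.72 to 23.3) in Cnn1-low cells, and 1.26 (1.02 to 1.54) and 1.8 (0.464 to 6.25) in Cnn1-high cells. The log2 difference in Cnn1-high cells minus that in Cnn1-low cells was -1.27 ± 0.30 (edgeR interaction adjusted p = 0.0361), where 0.229% of 8719 genes were called. That call was lost with RLE scaling (0.0646), DESeq2 (1.0), stricter cell filters (0.997), raised class thresholds (0.886) and 1 matched cell (0.162). Cnn1-low cells with Dmp1 also had less Rgs5, at 5056 and 2676 CPM against 7320 and 4664 CPM, and less Vtn, at 706 and 385 CPM against 1774 and 1514 CPM, than their matched cells. When only Cnn1-low cells with Rgs5 under 80 per 10000 were used, a choice made after seeing the data, the Pdgfc difference was 0.77 (adjusted p = 0.00276). The interaction was then -1.04 (0.377). The other members showed no call, with Pdgfa at 0.11 ± 0.08, Pdgfd at -0.17 ± 0.20, Pdgfb at 0.00 ± 0.15 and Pdgfrb at 0.00 ± 0.08 (adjusted p = 1 for each).

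**Figure D5:**
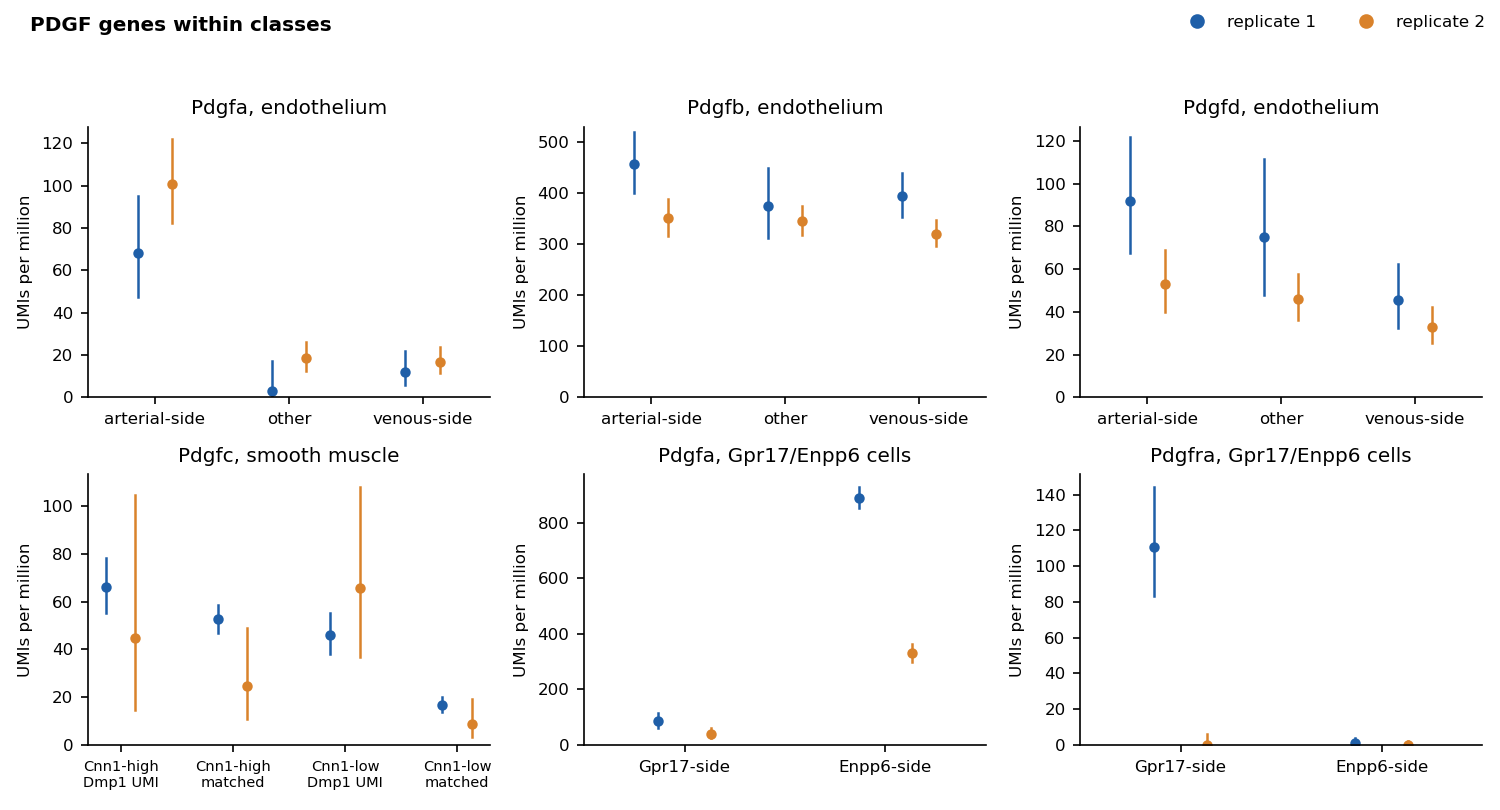
Levels in CPM, 1 point for each library with 95% Poisson intervals, of Pdgfa, Pdgfb and Pdgfd in arterial, venous and other endothelial barcodes, of Pdgfc in smooth muscle cells with a Dmp1 UMI and matched cells without, and of Pdgfa and Pdgfra on the Gpr17 and Enpp6 sides; where no UMI was counted the bar ends at the level of 3 UMIs. Pdgfa is higher in arterial than in venous barcodes (68.3 and 100.5 against 12 and 16.8 CPM), and Pdgfc is higher with Dmp1 in both smooth muscle classes of both libraries.

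In replicate 2, cells with Fos at 10 or more per 10000 were set beside the rest of their class. Replicate 1 had only 15 and 8 such cells in the smooth muscle classes and none among pericytes or endothelium, so no test was made at this threshold and the values are of 1 library. Pdgfrb stood at 1222 CPM in 1860 Fos-high pericytes and 1624 CPM in 1436 other pericytes, a ratio of 0.752 (0.726 to 0.779). In Cnn1-low cells the ratio was 0.761 (0.671 to 0.864) and in endothelium 1.04 (0.739 to 1.45). Pdgfb in pericytes had a ratio of 0.617 (0.481 to 0.792), against 0.967 (0.874 to 1.07) in endothelium. Pdgfa in endothelium was 51.4 CPM in Fos-high and 20.1 CPM in other barcodes, a ratio of 2.55 (1.8 to 3.68). The UMIs were 122 in 62 Fos-high barcodes and 45 in 39 others. The shares of barcodes with a Pdgfa UMI overlapped, at 11.3% (8.77 to 14.2) and 6.79% (4.88 to 9.17). These exact 95% intervals cover counting error and not the spread between preparations.

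At a lower threshold of 5 per 10000, chosen for this test after seeing the data, smooth muscle cells could be compared in both libraries. Replicate 1 then held 39 Fos-high Cnn1-high and 26 Fos-high Cnn1-low cells, and replicate 2 held 96 and 443. Pdgfrb stood at 288 CPM in Fos-high and 498 CPM in other Cnn1-low cells of replicate 1, and at 310 and 416 CPM in replicate 2. In Cnn1-high cells it was 233 against 260 CPM and 182 against 207 CPM. Pdgfrb was thus lower in the Fos-high sum of all 4 pairs, but the difference of -0.34 ± 0.11 did not pass the test over all genes (edgeR adjusted p = 0.348, 3 residual degrees of freedom). No other tested member was called, where 0.716% of 6845 genes were, 0.643% higher and 0.0730% lower. Pdgfa gave 0.01 ± 0.10, Pdgfb -0.12 ± 0.25, Pdgfc -0.28 ± 0.24 and Pdgfd 0.19 ± 0.32, with adjusted p-values from 0.880 to 1.0.

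Genes that act on or downstream of the members were counted from 4 lists. Among 13 tested of 16 genes for ligand processing and presentation, 2 were higher and 5 lower in smooth muscle cells than in pericytes, with a median log2 difference of 0.10 against -0.12 over all genes, where 35.0% of all genes were called, 15.2% higher and 19.8% lower. Pcsk6, a proprotein convertase, was 3.45 ± 0.58 higher (adjusted p = 0.00114) and Ndst1, a heparan sulfate sulfotransferase, 1.88 ± 0.23 higher (0.000143). Ndst2 fell by 1.69 ± 0.36 (0.00504) and Lrp1, a coreceptor of the beta receptor, by 1.59 ± 0.40 (0.0117). Hspg2, the heparan sulfate proteoglycan perlecan, fell by 1.47 ± 0.27 from Cnn1-low to transitional cells (0.0189) and was 1.65 ± 0.27 higher in pericytes than in transitional cells (0.00392). Plat, tissue plasminogen activator, which cleaves the CUB domain from PDGF-C, was 0.79 ± 0.18 higher in pericytes than in transitional cells (0.0212). Nrp1, a coreceptor for VEGF, fell by 2.13 ± 0.34 from Cnn1-low to Cnn1-high cells (0.0184) and was 2.42 ± 0.20 higher in endothelium than in mural cells (6.38e-06).

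All 36 receptor adaptors and kinases were tested, and 4 were higher and 13 lower in smooth muscle cells than in pericytes, with a median of -0.22 against -0.12 over all genes. Over all genes 35.0% were called there, 15.2% higher and 19.8% lower. The largest falls were those of Fyn, a Src-family kinase, by 2.83 ± 0.41 (adjusted p = 0.000503) and of Gab1, a docking protein, by 1.76 ± 0.14 (1.15e-05). Pik3r1, a regulatory subunit of phosphoinositide 3-kinase, fell by 1.34 ± 0.15 (9.62e-05). Gab1 and Pik3r1 were also higher in transitional than in Cnn1-low cells, by 0.96 ± 0.17 (0.0173) and 0.94 ± 0.18 (0.0243). In endothelium against mural cells 12 of the 36 were higher and 11 lower, beside 22.2% and 21.5% of all genes. Among them Plcg1, phospholipase C gamma, was 2.06 ± 0.14 higher (1.41e-06). In Gpr17/Enpp6 cells 8 were higher and 18 lower than in the vascular classes, beside 28.3% and 30.3% of all genes, with Fyn 4.44 ± 0.30 higher (8.46e-07).

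Of 18 tested negative regulators out of 19, 2 were higher and 11 lower in smooth muscle cells than in pericytes, and the median was -1.01 against -0.12 over all genes, of which 15.2% were called higher and 19.8% lower. Ptprb, a receptor tyrosine phosphatase best known in endothelium, fell by 4.41 ± 0.49 (adjusted p = 8.25e-05) and was 7.52 ± 0.34 higher in endothelium than in mural cells (9.07e-08). The endothelial markers in pericytes given above moved with it, and their part in it was not tested. Spry2, a feedback inhibitor of receptor kinases, fell by 2.06 ± 0.29 (0.000388). Errfi1, a feedback inhibitor of the EGF receptor, went the other way and was 3.30 ± 0.30 higher in smooth muscle cells (2.10e-05).

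Among 14 tested of 15 related receptors and ligands, 3 were higher and 6 lower in smooth muscle cells than in pericytes, beside 15.2% and 19.8% of all genes, with medians of -1.16 and -0.12. The falls in Kdr (4.55 ± 0.36, adjusted p = 9.31e-06) and Flt1 (3.70 ± 0.37, 4.35e-05), the endothelial receptors for VEGF, moved with the same endothelial markers, whose part was again not tested. Flt1 is itself among those 7 markers, so it was partly set beside itself. From transitional cells to pericytes Pgf, a VEGF-family ligand, fell by 1.72 ± 0.16 (0.000177) and Kit, the stem cell factor receptor, by 1.64 ± 0.43 (0.0405). In endothelium 6 were higher and 4 lower than in mural cells, beside 22.2% and 21.5% of all genes. In Gpr17/Enpp6 cells 3 were higher and 8 lower than in vascular classes, beside 28.3% and 30.3% of all genes. There Kitl, the ligand of Kit, fell by 5.24 ± 0.23 (4.39e-08) and Il34, a ligand of Csf1r, by 3.78 ± 0.47 (6.52e-05).

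The genes most like each member were taken as those with the highest Pearson correlation of log2(CPM + 10) over the 12 class sums among 6804 genes. The sums share libraries and classes, and the values are a description. Those of Pdgfrb were Slc19a1 (r = 0.987), a folate carrier, Vstm4 (0.987) and Pth1r (0.985), the parathyroid hormone receptor. Slc19a1 stood at 803 and 562 CPM in pericytes and at 214 and 125 CPM in Cnn1-high cells. Those of Pdgfc were Ldb3 (0.966), a Z-disc protein, Haus8 (0.933) and Csrp1 (0.923). Ldb3 stood at 82.9 and 64.8 CPM in Cnn1-high cells and at 2.46 and 1.47 CPM in pericytes. Those of Pdgfb were Ctnnb1 (0.982), which encodes beta-catenin, Sdcbp (0.972) and Il10rb (0.971). Those of Pdgfd were Serpinb6b (0.961), Wfdc1 (0.952) and 2510002D24Rik (0.946). Those of Pdgfa were Adam9 (0.971), a membrane metalloprotease, Fat1 (0.942) and Apba1 (0.940).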

How the data were processed

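Dendra2-sorted brain cells of 2 libraries were measured by 10x 3' single-cell RNA sequencing. The deposited values are raw UMI counts, whole numbers per gene and barcode (8236 and 7077 barcodes, 59026190 and 26218090 UMIs). CASAVA 1.8, Cell Ranger 3.1.0 and Seurat 2.3.4 are named in the submitters' processing notes, and neither the labels nor the matrices name a genome build. Of the 30905 gene IDs, 30766 were found in GENCODE M21 (GRCm38), which gave the positions. The members and gene lists were chosen with earlier results of these data known.

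Counts were summed by class and library and tested with edgeR 4.0.16 (R 4.3.3; quasi-likelihood, TMM, filterByExpr, library as block, 12 sums, 5 residual degrees of freedom), with Benjamini-Hochberg adjustment and a threshold of 0.05. All classes of a library come from 1 sorted preparation, hence the block. SE is the log2 difference divided by the square root of F. Endothelial, Dmp1, Fos and Gpr17/Enpp6 splits had fits of their own, with 2, 3, 3 and 1 residual degrees of freedom in that order. The percent of genes called leaves out the genes that define the classes. Barcodes meeting 2 class rules (45 and 16) were left out. Scrublet, run with scanpy 1.11.5, marked 2.62% and 0.0156% of barcodes as doublets and so did not work in replicate 2. Doublets were left in, and an alternative left out the 6% of barcodes with the highest scores (461 and 385) in place of its calls. Text names the 6 members, and in each list and comparison up to 4 called genes of the largest difference, except 1 gene that is not reported here. The planned test of Fos-high cells was not made at 10 per 10000, where replicate 1 had under 20 such cells in every class. An added test used smooth muscle cells at 5 per 10000. On simulated counts (12272 genes, smooth muscle against pericytes) the test recovered 95% of log2 changes of 1 and 100% of those of 2, and called 6 of 12072 unchanged genes. These counts had the same chosen spread for every gene and no class differences besides the changed genes. The shares therefore do not give the power for the members, whose spread was estimated from the data. Alternatives were DESeq2 1.42.0, RLE scaling, no gene filter, no block, other cell filters and thresholds, thinning to 1000 UMIs, and each library left out. Intervals are exact (scipy 1.17.1).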

Additional observations from a re-analysis of the deposited data

Results flagged for a closer look

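A difference between cell classes singled out 1 result. The log2 difference in Pdgfc between smooth muscle cells with a Dmp1 UMI and matched cells without one was -1.27 ± 0.30 when the value in Cnn1-low cells was taken from that in Cnn1-high cells, and the interaction test in edgeR gave an adjusted p of 0.0361. That call was lost with RLE scaling (0.0646), DESeq2 (1.0), stricter cell filters (0.997), raised class thresholds (0.886), 1 matched cell in place of 3 (0.162) and Cnn1-low cells of low Rgs5 (0.377). In replicate 2 the Pdgfc sums behind it held 15 and 6 UMIs in Cnn1-low cells and 5 and 8 UMIs in Cnn1-high cells. Cnn1-low cells with Dmp1 also had less Rgs5 and Vtn than their matched cells, and the part of that in the difference was not tested.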

How the results depend on the processing

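Over 570 recomputed member values, 489 counted as the same, 32 lost the call and 4 gained it. A further 25 moved by more than the spread, and 20, none called, changed sign with both libraries in. With both libraries in, the same meant an unchanged direction and call. With 1 library left out, it meant only a move within the SD of the values with either library left out. Those values therefore say nothing of the call. Without the replicate block (the library), counts of called genes fell from 206 to 1 for Cnn1-high against Cnn1-low cells, 46 to 0 for Dmp1 (67 at an unadjusted p under 0.05), 303 to 0 for the Gpr17 against the Enpp6 side (280), 758 to 73 for arterial against venous, 1264 to 536 for pericytes against transitional, 4456 to 2781 for smooth muscle against pericytes and 388 to 59 for transitional against Cnn1-low cells. DESeq2 gave 6 for Dmp1, 111 for the Gpr17 side, 193 for arterial and 607 for transitional cells. No gene filter gave 320, 117 and 486 for Cnn1, Dmp1 and the Gpr17 side. Stricter cell filters gave 3, 171 and 145 for Cnn1, the Gpr17 side and transitional cells. Raised thresholds gave 32, 27 and 5 for Cnn1, Dmp1 and the Gpr17 side. Thinning gave 9 for Dmp1, 18 for the Gpr17 side, 174 for arterial, 3559 (from 5557) for endothelium against mural and 3249 (from 7449) for Gpr17/Enpp6 cells against vascular, and 1 matched cell gave 27 for Dmp1. For Fos-high smooth muscle cells, a comparison added after seeing the data, 49 called genes became 100 with no gene filter and 0 without the replicate block (169 at an unadjusted p under 0.05). The cause of these moves was not tested.

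The values that changed sign with both libraries in were as follows. With 1 library left out, a change of sign was counted only for called differences, and those of uncalled ones are not listed. The Dmp1 difference of Pdgfb was -0.012 with no filter, -0.058 with barcodes of 2 classes kept and -0.038 without the highest doublet scores, and that of Pdgfd was 0.091 with 1 matched cell. That of Pdgfrb was 0.0014 with RLE, 0.0054 with DESeq2, 0.011 without the replicate block, 0.11 without the highest doublet scores, 0.018 with raised thresholds and 0.10 in low-Rgs5 cells. The interaction of Pdgfa was 0.013 with RLE, 0.00014 with no filter, 0.023 without the highest doublet scores, 0.046 with raised thresholds and 0.038 after thinning, and that of Pdgfrb was -0.17 with stricter filters and -0.012 in low-Rgs5 cells. The Fos difference of Pdgfa was -0.0020 with no filter and -0.00055 without the replicate block, where that of Pdgfd was -0.48. Leaving out 1 library left no residual degrees of freedom among libraries, so those values carry no test. Depth limits Pdgfc in pericytes and endothelium and Pdgfra in all classes, where sums held 34 UMIs or fewer outside the Gpr17/Enpp6 cells.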
